A study of Nothobranchius furzeri with 15 samples.

Results

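The genes described here were high only at the higher rotenone dose: in liver RNA of male turquoise killifish, all 5 libraries of rotenone 150 pM lay above all 10 libraries of DMSO and rotenone 15 pM. They were chosen on their measured expression, in CPM (the reads of a gene relative to all reads of its library, with TMM factors, which correct for differences in RNA composition). A gene entered when the lowest 150 pM library exceeded the highest of the other 10, when the DMSO and 15 pM ranges overlapped, and when its mean over 15 libraries was between 5 and 1000 CPM. This rule found 193 genes among the 9192 genes of that CPM range (2.10%) and the 15834 genes tested in all. Every level and difference between the groups given for them is therefore a description of the values that chose them, not a test.

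The fish were males of the GRZ strain of Nothobranchius furzeri, a short-lived annual fish, at 9 weeks of age, and liver was the tissue of all libraries. Per the labels, 5 libraries came from each of 3 groups, which received DMSO (the solvent control), rotenone at 15 pM or rotenone at 150 pM. The labels give no route or length of exposure and no tank, family or sequencing batch, and effects of these cannot be told apart from those of the dose. Whether each library is a separate fish is likewise not stated, so the spread behind the p-values may be partly technical. Libraries are named by the numbers in the submitters' titles, 1 to 5 for DMSO and for 15 pM and 8 to 12 for 150 pM.

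Rotenone is a plant-derived inhibitor of complex I, the enzyme that passes electrons from NADH to ubiquinone in the mitochondrial inner membrane. Blocking it slows respiration and can raise the formation of reactive oxygen species. Liver cells depend on mitochondria for the synthesis of glucose, lipids and plasma proteins and for the removal of foreign compounds.

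The files list genes by identifier and do not pair identifiers with names, and 0 of the 26739 identifiers were found in the RefSeq gene table used here. The genes are therefore described by their values, lengths and ranks, 2 of them by identifier, with no statement of function. For the same reason the tissue label and the presence of other cell types could not be checked against marker genes. In bulk liver RNA, more cells of a type and more RNA per cell cannot be told apart.

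Total counts ranged from 22185038 to 35672589 per library. The highest total was that of DMSO library 1, and the other 4 DMSO libraries held 25160285 to 27649168. In gene levels 3 other libraries were singled out, with earlier results of these data known. The 15 pM library 4 was the lowest of the 10 DMSO and 15 pM libraries in 30.2% of the genes of the CPM range that are not among the 193, and the highest in 29.0%. In 150 pM libraries 8 and 10 the 10 most abundant genes held 21.2% and 19.1% of the counts, against 25.3% to 29.8% in the other 3 libraries of that dose. Counts of called genes are given also without each of these 4 libraries where leaving it out moves them by over 1.5 times.

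The 193 genes were of low and middle abundance, like the range they were drawn from. Their mean over all libraries ran from 5.03 to 955 CPM with a median of 16.2 CPM, and the median over the whole range was 16.7 CPM. Between 10 and 50 CPM lay 107 of them (55.4%, against 55.1% of the range), and 5 had a mean of at least 500 CPM (2.59%, against 1.43%). The counts behind them had a median of 451 per gene and library, from 5 to 48133, and no 150 pM library held fewer than 111 counts of any of them. Per kilobase of gene, which allows levels of different genes to be compared, the median of the group means was 3.00 CPM in DMSO, 2.38 CPM at 15 pM and 4.80 CPM at 150 pM.

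Nfu_g_1_000084 had the widest gap between 150 pM and the other groups. In DMSO libraries 1 to 5 it stood at 6.83, 2.31, 1.72, 3.40 and 4.65 CPM. At 15 pM, libraries 1 to 5 held 0.421, 0.294, 2.45, 0.185 and 0.402 CPM, and at 150 pM libraries 8 to 12 held 22.2, 16.6, 18.4, 15.0 and 21.1 CPM. All 150 pM libraries were high, and all 15 pM libraries except library 3 lay below every DMSO library. The lowest 150 pM library was 2.19 times the highest of the other 10, with a 95% interval of 1.88 to 2.55 from counting error alone. Group means were 3.78 ± 2.04 CPM in DMSO, 0.750 ± 0.954 CPM at 15 pM and 18.6 ± 3.03 CPM at 150 pM (SD, n = 5 each). The log2 fold change of 150 pM was 2.29 (SE 0.54) against DMSO and 4.65 (SE 0.62) against 15 pM. The edgeR test described below called both, with adjusted p of 0.026 and 0.00035. Without DMSO library 2, 3 or 4 the first was 0.083, 0.056 or 0.053, and without 150 pM libraries 8 and 10 it was 0.085. The gene was also called lower at 15 pM than in DMSO (log2 fold change -2.35, adjusted p 0.035). These calls describe values the rule used. Its gene length was 3189 bases.

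Nfu_g_1_008124 was the most abundant of the 193 genes at 150 pM by CPM. DMSO libraries 1 to 5 held 578, 702, 794, 541 and 1036 CPM, and 15 pM libraries 1 to 5 held 657, 975, 878, 110 and 1019 CPM. Libraries 8 to 12 of 150 pM held 1056, 1660, 1110, 1186 and 1874 CPM. Its 150 pM values began just above the highest DMSO library, at 1.02 times that value, and 15 pM library 4 lay far below all others. The mean was 1377 ± 367 CPM at 150 pM against 730 ± 198 CPM in DMSO and 728 ± 373 CPM at 15 pM (SD, n = 5 each). That gave a log2 fold change of 0.92 against each, with an SE of 0.42. The edgeR test described below called this gene in neither comparison, with adjusted p of 0.216 against DMSO and 0.153 against 15 pM. Against DMSO, 3 alternative settings called it and 19 did not. The edgeR adjusted p was 0.0167 without 15 pM library 4 and 0.0291 with the 10 libraries of the comparison alone. Without 15 pM library 4 and 150 pM libraries 8 and 10 it was 0.0113. Against 15 pM, 22 alternative settings left the gene uncalled. Its gene length was 4177 bases.

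**Figure D1:**
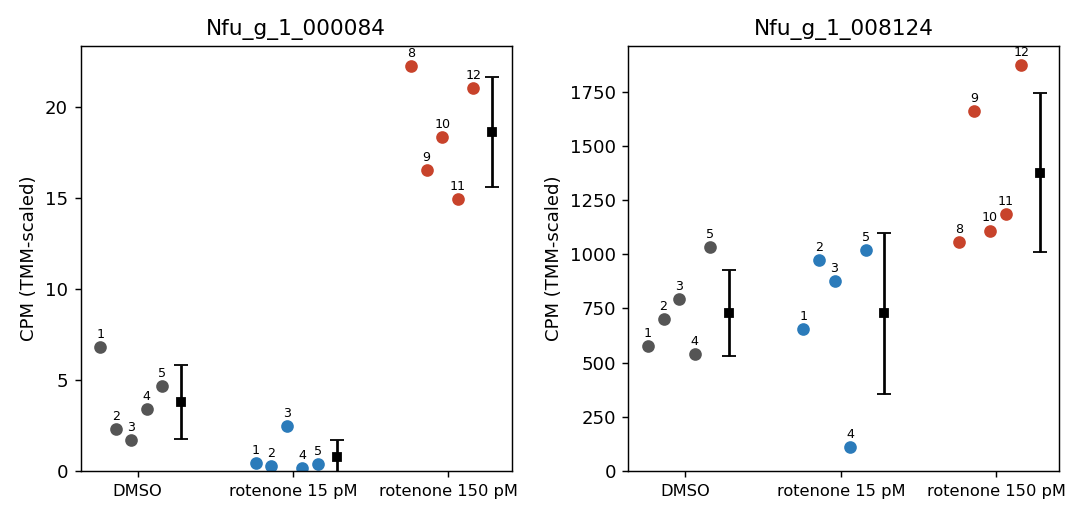
CPM of Nfu_g_1_000084 (left) and Nfu_g_1_008124 (right) in each library; circles are libraries with their numbers, squares and bars are the mean ± SD of 5 libraries. The 150 pM libraries of the first gene lie at 15.0 CPM and above and all others at 6.83 CPM and below, whereas in the second the lowest 150 pM library, at 1056 CPM, lies next to the highest DMSO library, at 1036 CPM.

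The gap that defines the set was narrow in most of it. The lowest 150 pM library was a median of 1.07 times the highest of the other 10, and 69 of 193 genes had a ratio of at least 1.1, 33 of at least 1.2 and 5 of at least 1.5. For 70 genes the 95% interval of this ratio from counting error alone lay above 1, and for 123 it included 1. The ratio is made of the values that the rule used, so this split is a description and not a test. A DMSO library was the highest of the other 10 in 143 genes and a 15 pM library in 50. Over the other genes of the range, each DMSO library was the highest of these 10 in 3.77% to 9.19%. Each 15 pM library was so in 7.35% to 29.0%. In the set, DMSO library 4 was the highest in 50 genes (25.9%, against 9.19% of the other genes of the range). DMSO library 1 was so in 41 (21.2%, against 7.67%) and DMSO library 5 in 34 (17.6%, against 3.77%). DMSO libraries 2 and 3 were so in 3.11% and 6.22%, against 6.01% and 4.68%. For 15 pM libraries 1 to 5 it was 0%, 6.74%, 11.4%, 1.55% and 6.22%, against 7.35%, 15.8%, 8.36%, 29.0% and 8.13%. The rule caps the highest of these 10 values, so it bears on these shares, which are a description and not a test. The 3 genes just inside the rule had log2 gaps of 0.00011, 0.00042 and 0.0039, and the 3 genes just outside it, with overlapping DMSO and 15 pM ranges, had -0.0021, -0.0033 and -0.0037. Membership near this edge moves with the scaling: with library totals in place of TMM factors the rule found 121 genes, of which 82 were among the 193. With RLE size factors it found 202, of which 182 were shared, and 78 genes met the rule under all 3 scalings. Of the 33 genes with a ratio of at least 1.2, 30 were among these 78.

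Several genes behind Nfu_g_1_000084 in that ranking show the pattern at similar or higher abundance. The gene ranked second stood between 4.65 and 6.06 CPM in DMSO, between 2.72 and 6.62 CPM at 15 pM and between 10.7 and 19.2 CPM at 150 pM. The third was wider within groups, at 20.5, 4.24, 5.41, 15.2 and 8.39 CPM in DMSO libraries 1 to 5 and 32.5 to 56.3 CPM at 150 pM. Its 15 pM libraries held between 0.444 and 12.03 CPM, so that the 2 lower groups overlapped while the third group stood clear. The fourth combined a clear gap with high abundance. It stood between 218 and 340 CPM in DMSO, between 137 and 347 CPM at 15 pM and between 525 and 769 CPM at 150 pM, with means of 307 ± 50.8, 248 ± 77.9 and 666 ± 107 CPM (SD, n = 5 each).

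Most differences were below 2-fold. The median log2 fold change of the 193 genes at 150 pM was 0.58 against DMSO, with quartiles of 0.44 and 0.82, where all genes tested had a median of 0.01. Against 15 pM it was 0.89, where all genes tested had a median of -0.03. In 37 genes the difference from DMSO reached 2-fold and in 4 it reached 4-fold, while 73 had a log2 fold change under 0.5. The smallest was 0.16. These medians follow from the choice of genes.

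The edgeR quasi-likelihood test over all 15834 genes (Benjamini-Hochberg adjusted p under 0.05) called 76 of the 193 genes higher at 150 pM than in DMSO. Of all genes tested 2.13% were called higher there. Against 15 pM it called 173 higher, where 9.14% of all genes tested were called higher. Both tests called 75 genes, against 1.52% of all genes tested, and 19 genes passed neither. Groups that do not overlap thus did not always pass the test, and since the rule used these contrasts the counts are read no further. The count against DMSO moved with single libraries. Leaving out DMSO library 1, 2, 3 or 5 gave 46, 22, 37 or 43 calls. Dropping 15 pM library 4 gave 153, and dropping 150 pM library 8, 10 or 12 gave 40, 37 or 49. Without libraries 8 and 10 together it was 21, and 105 genes were called against 15 pM. Leaving out 15 pM library 4 as well gave 106 and 135. DESeq2 called 138 against DMSO, the fit of the 10 libraries of that comparison alone 154, and library totals in place of TMM 30. The share of all genes called in these other fits was not counted, so whether the moves are particular to the set was not tested.

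**Figure D2:**
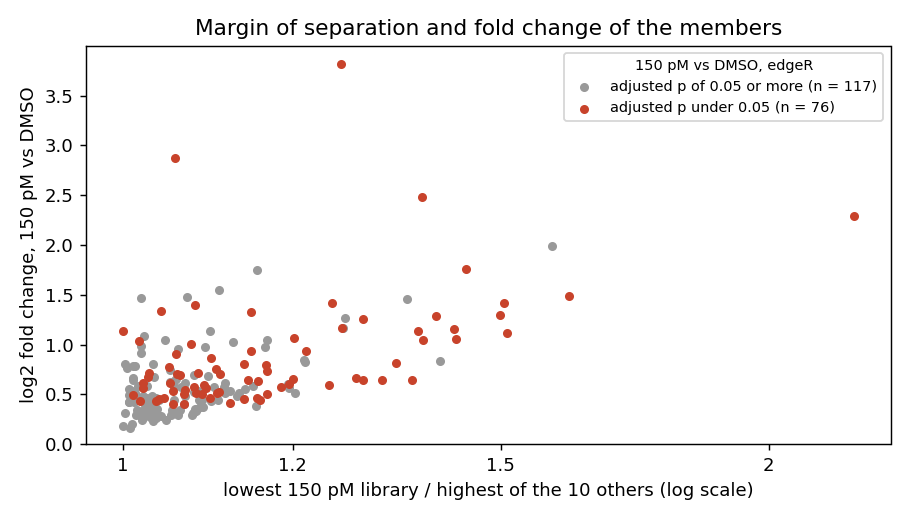
Each of the 193 genes by its gap (x, ratio of the lowest 150 pM library to the highest of the other 10, log scale) and its log2 fold change of 150 pM against DMSO (y); red marks the 76 genes called by edgeR. Most genes crowd at ratios under 1.1, and a fold change above 4-fold occurs at ratios of 1.06 to 2.19.

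At 15 pM most of the set lay below DMSO, although the rule only required these ranges to overlap. The 15 pM mean was below the DMSO mean in 171 of 193 genes (88.6%), against 42.4% of the genes of the CPM range. The median log2 fold change of 15 pM against DMSO was -0.29 in the set and 0.05 in the range. Without 15 pM library 4 the 15 pM mean was below DMSO in 150 genes (77.7%, against 46.3% of the range), with a median log2 ratio of means of -0.19. A gene low at 15 pM meets the condition that 150 pM exceeds the 15 pM libraries more easily, so the rule itself bears on this order and no test is drawn from it.

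By the same edgeR test, 20 of the 193 genes were lower at 15 pM than in DMSO, where 3.69% of all genes tested were lower. Higher at 15 pM were 0, where 0.524% of all genes tested were higher, with 1 of the set higher at an unadjusted p under 0.05. The rule used the DMSO and 15 pM values of these genes, so these counts of calls are a description and not a test. The 20 genes had log2 fold changes between -3.18 and -0.43, of which 10 reached a 2-fold difference. One example, ranked 76th by its gap, stood at 24.3, 16.8, 11.8, 28.2 and 27.8 CPM in DMSO libraries 1 to 5. At 15 pM it stood at 2.26, 3.42, 16.2, 3.00 and 2.71 CPM, and at 150 pM between 30.8 and 52.8 CPM. Only 15 pM library 3 reached into the DMSO range. The count of 20 moved with the libraries in the fit, also with those of 150 pM, which are not part of this comparison. Leaving out DMSO library 1, 2, 3, 4 or 5 gave 1, 4, 23, 6 or 2 calls. Without 15 pM library 1, 2, 3, 4 or 5 it was 1, 1, 29, 26 or 5. With 150 pM library 8, 9, 10, 11 or 12 dropped from the shared fit it was 11, 10, 11, 8 or 8. It was 6 without 150 pM libraries 8 and 10 and 36 with DESeq2. In the fit of the 10 DMSO and 15 pM libraries alone it was 1. For these fits too, the share of all genes called was not counted.

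The rule holds every 150 pM library above the 10 others and leaves the 15 pM libraries free to fall, so the narrow range of the 150 pM libraries over these genes is partly set by it. Each library was placed by the median, over the 193 genes, of its log2 CPM minus the DMSO mean. DMSO libraries 1 to 5 were at -0.01, -0.04, -0.08, 0.09 and 0.07. The 15 pM libraries 1 to 5 were at -0.41, -0.30, 0.00, -0.65 and -0.14, and 150 pM libraries 8 to 12 at 0.60, 0.60, 0.61, 0.53 and 0.54. Library 3 of 15 pM was at the DMSO level and library 4 the lowest. In library 4 lay the lowest of the 10 values for 110 of the 193 genes (57.0%, against 30.2% of the other genes of the range). Over the other genes of the CPM range the same medians stayed between -0.06 and 0.06 in all 15 libraries. Scaling by TMM factors itself brings most genes to a common level, so these medians are largely set by it.

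**Figure D3:**
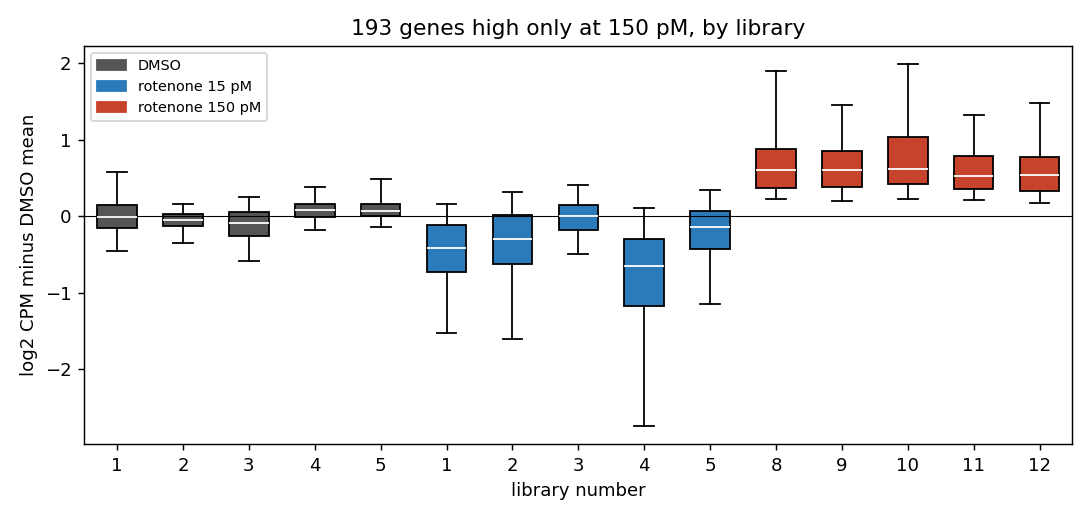
Log2 CPM (plus 0.1) minus the gene's DMSO mean for the 193 genes in each library; boxes give the quartiles, white lines the median and whiskers the 5th and 95th percentiles over genes. The 150 pM medians lie between 0.53 and 0.61 and those of 15 pM between -0.65 and 0.00.

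Summed over the 193 genes, expression was 9553 ± 697 CPM in DMSO, 8649 ± 1665 CPM at 15 pM and 15271 ± 1025 CPM at 150 pM (SD, n = 5 each). As a share of the deposited counts, the set held 0.908% to 1.04% in DMSO, 0.671% to 0.961% at 15 pM and 1.23% to 1.82% at 150 pM. The spread within groups, as the median coefficient of variation over genes, was 12.28% in DMSO, 23.9% at 15 pM and 12.32% at 150 pM. In the whole CPM range it was 13.8%, 25.3% and 17.1%. The low spread at 150 pM is partly set by the rule, since a gene with 1 low 150 pM library cannot enter. Without library 4 the 15 pM value was 17.1% in the set and 16.9% in the range.

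The rule required every 150 pM library of a gene to lie above the 10 others, so the order of the 5 libraries within 150 pM is a description of values the rule used. Library 10 was the highest of the 5 in 57 genes (29.5%, against 20.4% of the other genes of the range). Library 9 was so in 48 (24.9%, against 32.7%) and library 8 in 39 (20.2%, against 15.7%). For library 11 it was 28 (14.5%, against 16.8%) and for library 12 it was 21 (10.9%, against 14.4%). Libraries 8 and 10 together were the highest pair in 41 genes (21.2%, against 12.001% of the other genes of the range). Their mean was a median of 1.04 times that of libraries 9, 11 and 12. The median log2 ratio of the 150 pM mean to the DMSO mean was 0.57 with all 5 libraries and 0.55 with libraries 9, 11 and 12 only.

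A few genes differed more between these libraries. In 5 genes the mean of libraries 8 and 10 was at least 2 times that of the other 3. One of them, ranked 88th by its gap, stood at 17.2 and 15.5 CPM in libraries 8 and 10 and at 4.66, 4.50 and 5.29 CPM in libraries 9, 11 and 12, above 2.90 to 4.16 CPM in the 10 others. In 3 genes libraries 9, 11 and 12 led by at least 1.5 times instead. The gene with the highest log2 fold change against DMSO, 3.81 (SE 0.80), was one of these. It stood at 9.84, 27.1, 11.25, 31.0 and 68.8 CPM in libraries 8 to 12, between 0.518 and 5.29 CPM in DMSO and between 0.919 and 7.79 CPM at 15 pM. Another of the 3, with a log2 fold change of 2.87 (SE 0.52), followed the same order of libraries at 5.00, 11.1, 7.56, 15.2 and 24.3 CPM.

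Gene length, which the rule did not use, was greater in the set than in its CPM range. The median length was 5548 bases in the 193 genes and 3156 bases in the other genes of the range, and 136 of 193 (70.5%) were longer than the latter value. Genes over 8000 bases supplied 58 of the 193, which were 7.22% of the 803 genes of that length in the range. Genes of up to 1000 bases supplied 8, or 0.699% of 1145, and the share was higher in each longer class in between. Lengths ranged from 236 to 18048 bases. Genes found by the mirrored rule, low only at 150 pM, numbered 160, with a median length of 2289 bases. The 79 genes high only at 15 pM had a median of 1809 bases, and the 174 genes low only at 15 pM had 6385 bases. These lists share libraries and the difference between them was not tested.

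**Figure D4:**
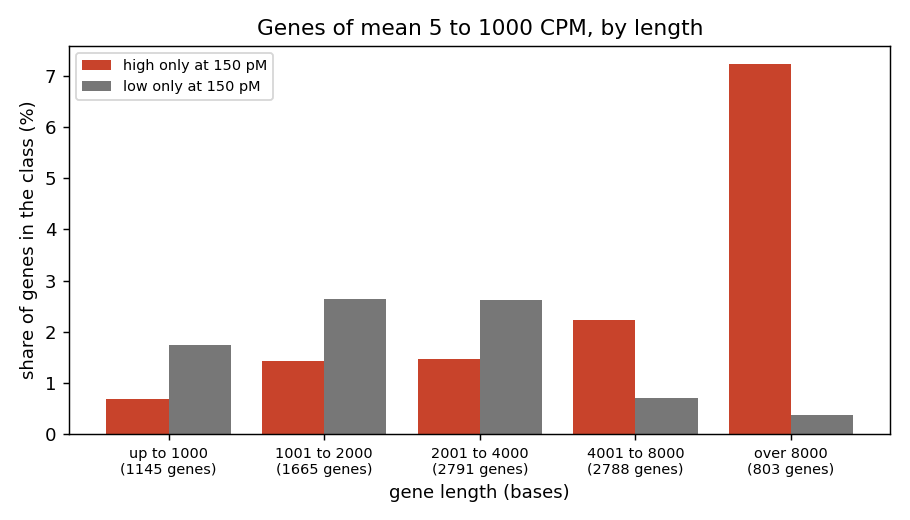
Share of the genes of mean 5 to 1000 CPM in each length class (x, bases, with the number of genes) that were high only (red) or low only (grey) at 150 pM. The red bars go up from 0.699% to 7.22% with length, and the grey bar of the longest class is at 0.374%.

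A library-wide trend with length moved in the same direction. Across the other genes of the range, gene length was set against each library's log2 deviation from the mean of each gene, and the Spearman correlation was 0.05 to 0.20 in the 150 pM libraries. It was -0.28 to -0.06 in the 15 pM libraries and -0.12 to 0.18 in DMSO, so that 150 pM and 15 pM did not overlap while DMSO overlapped both. These correlations are across genes, which are not independent replicates. The median lengths under other settings were computed after seeing the data. With each library's length trend removed, an operation that itself acts on the lengths, the rule found 166 genes with a median length of 3377 bases, and 132 of them were among the 193. Without this removal the medians were 5548 bases in the 193 genes and 3156 bases in the other genes of the range. With library totals in place of TMM the median length was 4029 bases, and with RLE size factors it was 5664 bases. Without 150 pM libraries 8 and 10 it was 4534 bases in 348 genes, without these and 15 pM library 4 it was 5044 bases in 422 genes, and without 15 pM library 4 alone it was 5632 bases in 202 genes. The part of this trend in the membership of single genes was not tested.

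The set is the larger portion of the genes whose 150 pM libraries all lay above the 10 others. In the CPM range 242 genes did so (2.63% of 9192), and the 49 that are not in the set had DMSO and 15 pM ranges that did not overlap. In all 49 of these the 15 pM libraries lay below the DMSO libraries, and in 0 above, and edgeR called 39 of the 49 lower at 15 pM than in DMSO, where 3.69% of all genes tested were called lower. These 49 were picked for DMSO and 15 pM ranges that lie apart, so nothing is read from that count. The requirement of an overlap thus removed genes ordered 15 pM, DMSO, 150 pM.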

How the data were processed

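Liver RNA of 15 libraries was analysed. Per the labels' protocols, the TruSeq kit v2 was used, an RNA kit without strand marks. The submitters' processing notes name STAR 2.4.1d, featureCounts 1.4.6-p4 and CASAVA 1.8.2 without saying what each did. Genome build, annotation and the handling of multi-mapping reads are not given in the sources, and genes with near-identical copies and overlapping or antisense genes have uncertain values.

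The authors deposited whole-number read counts per gene for 26739 identifiers, and an RPKM table. The deposited RPKM values fitted 1 gene length within 0.2% for 100% of the checked values only with library totals taken in turn down the rows, and for 7.91% with each library's own total. They served to recover gene lengths and, though not scaled by each library's own total, as an alternative.

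Counts were filtered with filterByExpr (minimum count 10; 15834 genes, 99.9% of counts), scaled by TMM and tested with edgeR 4.0.16 in R 4.3.3 (quasi-likelihood F-test, two-sided, 1 fit of 15 libraries, no covariate, Benjamini-Hochberg adjustment over all genes, threshold 0.05). Log2 CPM used a pseudocount of 0.1. The script was tested on simulated data. Alternatives were other scalings and filters, DESeq2 1.42.0, limma 3.58.1 (voom), other limits on the mean, and libraries left out. The identifiers printed are the gene with the largest gap and the one with the highest mean at 150 pM. The members and lists were chosen with earlier results of these data known. Lists of named pathway and cell type genes could not be applied. The 30 pairs of libraries of 1 group differed by at least 43.4 times what sampling noise gives, by chi-square over its degrees of freedom, and none was counted as a copy. Intervals cover counting error only, and those of the gap are made of the values that chose the genes.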

Additional observations from a re-analysis of the deposited data

Results flagged for a closer look

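In 2 places, 1 of the 5 libraries of a group lay apart from the other 4 by more than Dixon's 95% criterion. Chance meets this criterion in about 1 in 20 groups. The number of groups searched is not given here, so the 2 flags are not weighed against that rate. The first was Nfu_g_1_000084 at 15 pM, where library 3 held 2.45 CPM and the other 4 held 0.185 to 0.421 CPM. The lowest DMSO library held 1.72 CPM, so the overlap that the rule required was met only through library 3. This flag is therefore partly set by the rule, and the rate of 1 in 20 is no measure for it. The second was the total count of DMSO library 1, 35672589, against 25160285 to 27649168 in the other 4. Over the 193 genes, 22 had 1 library apart at 15 pM, with library 3 high in 10 and library 4 low in 10, against 11 genes in DMSO and 10 at 150 pM. The share over the other genes of the range was not counted, so these counts are not read as particular to the set. The rule also bears on them, since it limits low values at 150 pM and asks 15 pM to overlap DMSO.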

How the results depend on the processing

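The number of genes high only at 150 pM was 193, and between 169 and 244 when any 1 library was left out. With fewer 150 pM libraries the condition on that dose is easier to meet, and the rule found 348 genes without 150 pM libraries 8 and 10 and 422 without these and 15 pM library 4. It found 317 without limits on the mean CPM. With library totals, or with RPKM recomputed from each library's own total, which is the same scaling, it found 121. With the deposited RPKM it found 28, but those values fit library totals taken in turn down the rows, not each library's own. They are therefore not scaled alike between libraries, and the 28 is read no further. The count of members called against DMSO was 76, with 22 to 153 when 1 library was left out, 30 with library totals, 138 with DESeq2, 154 with the 10 libraries of the comparison alone and 21 without libraries 8 and 10. Against 15 pM it was 173, with 144 to 171 when 1 library was left out and 105 without libraries 8 and 10. The count lower at 15 pM than in DMSO was 20, with 1 to 29 when 1 library was left out, 11 with no filter on low counts, 36 with DESeq2, 1 with 10 libraries alone and 6 without libraries 8 and 10. DMSO and 15 pM share the numbers 1 to 5, and with the replicate number as a block in a fit of their 10 libraries this count was 0. Same-numbered libraries correlated between -0.05 and 0.10 in their deviations from the group means, and 0 of 5 correlated best with its own number, so the numbers were not taken to pair them. In the changed fits the share of all genes called was not counted. Where not stated otherwise, the cause was not tested. For 123 of 193 genes the interval of the gap ratio from counting error alone included 1, which describes values the rule used and is not a test.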
